A study of Homo sapiens with 4 samples.

Results

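The promoters of 8 human genes that sense DNA breaks and signal to the cell cycle checkpoints were examined for acetylation of histone H3 at lysine 9 (H3K9ac): MRE11, RAD50, NBN, ATM, ATR, TP53BP1, CHEK1 and CHEK2. The cells were T98G, an established glioblastoma line, at passage 4, transduced with a lentivirus that carried either an shRNA against RBBP4 (shRBBP4) or the control shRNA (shNT). Chromatin immunoprecipitation followed by sequencing (ChIP-seq) with the same H3K9ac antibody gave 1 library of each kind, so no difference between them has a replicate check and no test across groups was possible. The number of different RBBP4 hairpins is not given in the labels, and the RBBP4 level itself was not analysed here. The question set by the design is how the H3K9ac landscape with RBBP4 shRNA compares with that under the control shRNA.

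The genes were fixed by name, and a called region counted as a member when any of its bases lay within 5 kb of the gene's start on hg19. The starts used were chr11:94227040 for MRE11, chr5:131892616 for RAD50, chr8:90996899 for NBN, chr11:108093559 for ATM, chr3:142297668 for ATR, chr15:43802707 for TP53BP1, chr11:125495031 for CHEK1 and chr22:29137822 for CHEK2. This gave 28 of the 39303 regions in shRBBP4 and 20 of the 26828 regions in shNT. Although the rule allowed 5 kb, the farthest base of a member lay 2329 bp from its start in shRBBP4 and 1969 bp in shNT, and windows of 10 kb added no region. The strength of a region is given as its score percentile, the rank of the authors' score within that library's own list. Percentiles of lists of different length are set side by side as descriptions and do not show a change.

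MRE11, RAD50 and NBN form the complex that binds the ends of double-strand breaks and activates the kinase ATM, while the kinase ATR responds to single-stranded DNA at stalled replication forks. ATM acts largely through CHEK2 and ATR through CHEK1, and TP53BP1 collects on the chromatin around breaks and favours their repair by end joining. H3K9ac marks the nucleosomes on either side of active start sites, and the start itself commonly lies in a stretch with few nucleosomes, where a histone mark gives little signal. RBBP4 is a histone-binding subunit of several complexes, among them those that carry histone deacetylases.

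Promoter sequences from 250 bases before to 50 bases after a start were taken from RefSeq on GRCh38.p14, which held entries for 7 of the 8 genes and none for NBN. They are shown for the genes whose regions flank the start on both sides in shRBBP4, with a gap over it (MRE11, ATM, ATR and CHEK2). They are also shown for TP53BP1 and RAD50, which had regions in shRBBP4 but none in shNT. Their positions are chr11:94493795-94494094 (minus strand), chr11:108222817-108223116 (plus), chr3:142578684-142578983 (minus), chr22:28741771-28742070 (minus), chr15:43510591-43510890 (minus) and chr5:132556727-132557026 (plus), on GRCh38.p14 and not on the build of the regions. Whether these windows match the gaps between regions on hg19 was not checked. The MRE11 entry lies 18568 bp inside the outermost start that RefSeq gives that gene. CHEK1, also flanked on both sides in shRBBP4, has 3 entries in the table, described with its values, and is not shown. Capitals mark matches, on either strand, to the CCAAT box (CCAAT or ATTGG), the GC box (GGGCGG or CCGCCC) and the ETS motif (CCGGAAG or CTTCCGG).
MRE11: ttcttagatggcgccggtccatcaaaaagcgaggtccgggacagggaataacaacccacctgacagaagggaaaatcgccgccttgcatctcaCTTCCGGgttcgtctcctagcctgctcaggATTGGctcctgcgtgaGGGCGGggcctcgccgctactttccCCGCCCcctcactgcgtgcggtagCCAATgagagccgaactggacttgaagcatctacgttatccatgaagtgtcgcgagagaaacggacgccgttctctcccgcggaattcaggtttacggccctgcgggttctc
ATM: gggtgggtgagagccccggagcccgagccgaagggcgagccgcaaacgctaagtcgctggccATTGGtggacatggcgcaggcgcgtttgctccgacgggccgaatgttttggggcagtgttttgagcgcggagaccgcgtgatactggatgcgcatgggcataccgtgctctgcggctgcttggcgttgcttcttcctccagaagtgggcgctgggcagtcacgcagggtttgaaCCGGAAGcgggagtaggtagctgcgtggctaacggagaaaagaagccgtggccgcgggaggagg
ATR: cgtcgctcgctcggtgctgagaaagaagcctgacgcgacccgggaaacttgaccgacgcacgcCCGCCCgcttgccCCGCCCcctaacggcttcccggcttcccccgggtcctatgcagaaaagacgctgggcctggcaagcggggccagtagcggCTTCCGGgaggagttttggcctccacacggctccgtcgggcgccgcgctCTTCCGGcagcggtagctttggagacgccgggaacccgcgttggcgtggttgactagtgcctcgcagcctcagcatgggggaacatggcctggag
CHEK2: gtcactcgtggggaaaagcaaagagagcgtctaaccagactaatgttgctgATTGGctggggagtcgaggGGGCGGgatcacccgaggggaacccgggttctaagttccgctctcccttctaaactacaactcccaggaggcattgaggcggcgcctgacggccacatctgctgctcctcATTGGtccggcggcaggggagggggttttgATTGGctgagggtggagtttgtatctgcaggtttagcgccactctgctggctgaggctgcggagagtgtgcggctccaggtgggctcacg
TP53BP1: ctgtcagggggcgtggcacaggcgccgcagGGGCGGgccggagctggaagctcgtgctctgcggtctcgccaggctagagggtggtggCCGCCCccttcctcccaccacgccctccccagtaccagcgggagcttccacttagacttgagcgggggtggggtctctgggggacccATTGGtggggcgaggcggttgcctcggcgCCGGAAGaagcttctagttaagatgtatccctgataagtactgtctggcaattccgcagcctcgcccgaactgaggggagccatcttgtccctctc
RAD50: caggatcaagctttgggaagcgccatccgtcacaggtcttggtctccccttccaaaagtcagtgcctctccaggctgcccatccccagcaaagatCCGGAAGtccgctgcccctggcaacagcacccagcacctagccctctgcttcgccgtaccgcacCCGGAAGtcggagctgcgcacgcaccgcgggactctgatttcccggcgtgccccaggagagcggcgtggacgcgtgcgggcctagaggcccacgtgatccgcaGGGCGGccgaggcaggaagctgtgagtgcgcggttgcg

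The 7 promoters (first table entry of each gene) held 12 to 34 CpG dinucleotides in 300 bases, with a median of 26, against a median of 14 over the 35116 promoters of the table, and 59.0% to 68.3% G and C against a median of 58.7%. CHEK1, with 12, was below the median of the table, and CHEK2, with 16, was close to it. An ETS match was found in 5 of the 7 (ATR, RAD50, MRE11, ATM and TP53BP1), where 10.3% of all promoters held one. The promoters of the table were not matched to the 7 for CpG number. All entries of the table were counted, also where a gene has several, and they were not limited to protein-coding genes. A second ATM entry, 258 bp inside the first and not shown, held 22 CpG and no ETS match. GC boxes were present in 6 of the 7 and in 44.95% of all promoters, and CCAAT boxes in 5 of the 7 and 34.6% of all promoters. RAD50 had ETS matches 155 and 91 bases upstream of its start, ATR 94 and 45 bases upstream, and ATM 14 bases upstream. CHEK2 instead held 3 CCAAT boxes, at 199, 70 and 40 bases upstream. The E2F letters searched (TTTCCCGC, TTTGGCGC and their reverse complements) and the cyclic AMP response element TGACGTCA occurred in none of the 7 windows, and in 2.27% and 1.85% of all promoters. None of the matches in the printed sequences overlapped another, and a match is a description of letters, not evidence of a bound factor.

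All 8 promoters had at least 1 H3K9ac region in shRBBP4, and 6 of them had one in shNT. TP53BP1 and RAD50 were the 2 promoters with regions in shRBBP4 alone, and no promoter had regions in shNT alone. For comparison, windows of 5 kb on either side of the centre of each of 18106 joint clusters (regions of both lists joined across gaps of up to 1 kb) held regions of both libraries in 66.0% of cases, of shRBBP4 alone in 29.1% and of shNT alone in 4.97%. Those windows hold a region by construction, whereas the starts were fixed by name. The split of 6, 2 and 0 among the 8 starts stood near these shares, but the split at starts of other genes was not examined. Regions near the starts were 1.40 times as many in shRBBP4 as in shNT, and the whole lists had a ratio of 1.46.

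Most of the marked promoters had a region of high rank. The median over starts of the highest percentile within 5 kb was 93.4 in shRBBP4 (8 starts) and 94.2 in shNT (6 starts). The same value over the cluster windows with a region of that library was 69.7 and 67.8. Those windows lie around any cluster, many with few regions, and a highest value tends to rise with the number of regions. Starts of other genes were not compared, so whether the difference is particular to these 8 is not known. RAD50 was the exception in shRBBP4, at percentile 35.3, and the shNT value leaves out RAD50 and TP53BP1, which had no region there. Above percentile 90 there were 6 of 28 member regions in shRBBP4 and 6 of 20 in shNT, against 9.75% of all regions in shRBBP4 and 10.1% in shNT. Member regions wider than 1 kb numbered 4 of 28 in shRBBP4 and 1 of 20 in shNT, against 2.62% and 2.14% of the lists. Median widths were 322 bp in shRBBP4 and 248.5 bp in shNT near the starts, against 213 and 210 bp over the whole lists.

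**Figure D1:**
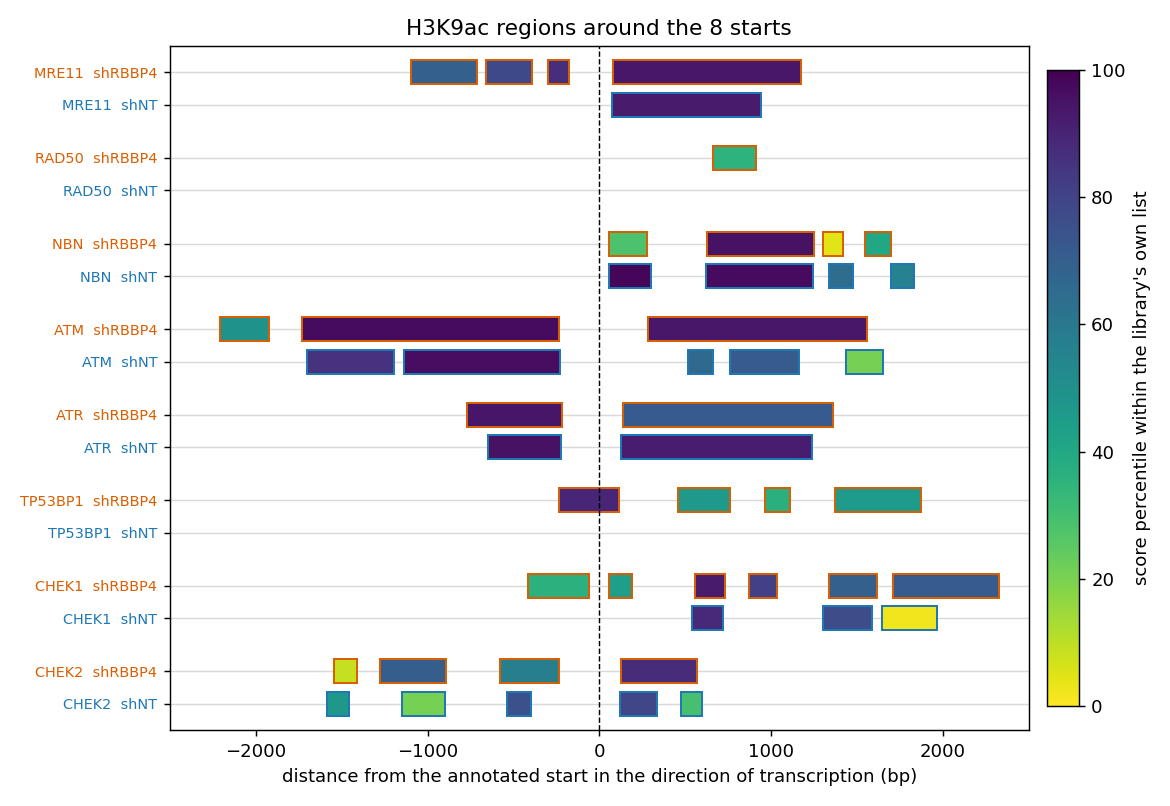
Regions around the 8 starts, with distance from the start in bp along the direction of transcription on the x axis and 1 row per gene and library (shRBBP4 above shNT). Each box is 1 called region and its fill is the score percentile within its own list; TP53BP1 and RAD50 have boxes in shRBBP4 alone, and in shNT the MRE11 row lacks boxes upstream of the start.

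Among the break sensors, MRE11, the nuclease of the complex, had a strong region over the beginning of the gene in both libraries. It ran from 78 to 1173 bp downstream of the start in shRBBP4 (chr11:94225867-94226962, 1096 bp, percentile 93.9) and from 73 to 942 bp in shNT (chr11:94226098-94226967, 870 bp, percentile 92.9). The libraries differed on the other side of the start. There shRBBP4 had 3 regions, of 125, 268 and 385 bp at percentiles 87.1, 77.7 and 69.7, between 174 and 1095 bp upstream, and shNT had none. This upstream side is shared with ANKRD49, which the RefSeq tables place head to head with MRE11, so the 3 regions cannot be assigned to either gene. Covered length was 1874 bp in shRBBP4 and 870 bp in shNT, a ratio of 2.154.

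RAD50, the ATPase that tethers broken ends, was the least marked of the 8. It had 1 region in shRBBP4, chr5:131893278-131893531, of 254 bp at percentile 35.3, lying 662 to 915 bp downstream of the start. No shNT region was called within 5 kb, and the nearest lay 59961 bp from it. Of the 5266 cluster windows with shRBBP4 regions alone, 59.2% had a highest percentile at or above that of RAD50. In the higher-scoring 50% of the shRBBP4 list RAD50 had no region, so its call rests on the lower-scoring part of that list.

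NBN, the subunit that brings the complex to ATM, had 4 regions in each library, all within the first 2 kb of the gene. They covered 1112 bp in shRBBP4 and 1137 bp in shNT, and 922 bp were covered in both, which is 82.9% of the shRBBP4 bases and 81.1% of the shNT bases. The main region lay 626 to 1249 bp downstream in shRBBP4 (624 bp, percentile 95.5) and 623 to 1242 bp in shNT (620 bp, percentile 97.3). The region nearest the start stood at very different ranks. It ran from 60 to 279 bp downstream in shRBBP4 (chr8:90996620-90996839, 220 bp) at percentile 28.4, and from 56 to 301 bp in shNT (chr8:90996598-90996843, 246 bp) at percentile 98.6. In shNT this was the highest-ranked region near any of the 8 starts, and in shRBBP4 it was the second lowest of the 4 at NBN. A further pair, 1305 to 1420 bp downstream in shRBBP4 and 1336 to 1475 bp in shNT, stood at percentiles 4.40 and 64.8.

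ATM, the kinase that answers double-strand breaks, had the most covered bases of the 8 in both libraries, 3058 bp in shRBBP4 and 2183 bp in shNT. Upstream, toward the head-to-head gene NPAT, a single region of 1496 bp in shRBBP4 (chr11:108091829-108093324, percentile 96.9) overlapped a pair of shNT regions of 507 and 912 bp at percentiles 85.7 and 96.8. The downstream side was continuous in shRBBP4 and broken in shNT. It was 1 region of 1274 bp in shRBBP4 (chr11:108093846-108095119, percentile 93.9), against 3 regions of 145, 405 and 214 bp in shNT at percentiles 66.4, 71.8 and 20.98. A further shRBBP4 region of 288 bp, 1921 to 2208 bp upstream at percentile 48.9, had no shNT counterpart. ATM bases covered in shNT were covered in shRBBP4 too to 95.5%, and 68.2% of the shRBBP4 bases were covered in shNT.

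ATR, the kinase of replication stress, had 1 region on each side of the start in both libraries. Upstream the regions measured 554 bp in shRBBP4 and 425 bp in shNT, at percentiles 94.4 and 95.5. Downstream they measured 1221 bp in shRBBP4 (chr3:142296310-142297530) and 1111 bp in shNT (chr3:142296428-142297538), at percentiles 71.8 and 91.8. Covered length was 1775 bp in shRBBP4 and 1536 bp in shNT, a ratio of 1.16, and 99.5% of the shNT bases were covered in shRBBP4.

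TP53BP1, the break-site adaptor, had 4 regions covering 1296 bp in shRBBP4 and none in shNT. The strongest, chr15:43802595-43802941, of 347 bp at percentile 89.5, lay over the start itself, from 234 bp upstream to 112 bp downstream. It spans most of the TP53BP1 promoter stretch printed above, if the start is the same in both builds. The other 3 followed within the first 2 kb of the gene, with widths of 302, 145 and 502 bp and percentiles 45.9, 36.4 and 45.4. The nearest shNT region was 15904 bp from the closest of them. In the cluster windows with shRBBP4 regions alone, the median was 1 region, 256.5 bp covered and a highest percentile of 40.5. Of these windows, 2.37% reached the highest percentile of TP53BP1 and 1.94% its covered length. The windows lie around any cluster and were not chosen at gene starts, and a highest value tends to rise with the number of regions. Over the starts examined here, the median highest percentile in shRBBP4 was 93.4, above the 89.5 of TP53BP1. Starts of other genes with regions in shRBBP4 alone were not compared. MAP1A lies head to head with TP53BP1 in the RefSeq tables, and a region over the start can belong to either promoter.

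CHEK1, the kinase downstream of ATR, had 6 regions covering 1728 bp in shRBBP4 and 3 covering 790 bp in shNT, a ratio of 2.19. All 3 shNT regions had an shRBBP4 counterpart. The strongest pair lay 556 to 732 bp downstream in shRBBP4 (177 bp, percentile 92.9) and 540 to 722 bp in shNT (183 bp, percentile 88.5). The next pair lay 1337 to 1618 bp downstream in shRBBP4 and 1301 to 1586 bp in shNT, at percentiles 69.7 and 77.3. The farthest pair differed most, with 619 bp at percentile 71.8 in shRBBP4 and 321 bp at percentile 2.12 in shNT. In shRBBP4 alone, regions of 353 and 135 bp at percentiles 36.02 and 44.3 closed in on the start from both sides, ending 60 bp upstream and beginning 55 bp downstream, and a further one of 162 bp lay 871 to 1032 bp downstream. The RefSeq table on GRCh38.p14 gives CHEK1 3 starts that lie 1088, 1093 and 1220 bp inside its outermost one. These distances were not carried over to hg19, so upstream, downstream and gap at CHEK1 hold only for the start used here. Regions were absent from 1032 to 1337 bp in shRBBP4 and from 722 to 1301 bp in shNT. Whether these stretches match any of those starts was not tested.

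CHEK2, the kinase downstream of ATM, had 4 regions covering 1299 bp in shRBBP4 and 5 covering 864 bp in shNT, a ratio of 1.503. Every region of either library had a counterpart in the other. Just inside the gene, 1 region of 441 bp at percentile 87.7 in shRBBP4 (chr22:29137255-29137695) stood against 2 of 219 and 123 bp in shNT at percentiles 79.2 and 29.4. Upstream, toward the head-to-head gene HSCB, the 3 regions measured 342, 386 and 130 bp in shRBBP4 and 144, 251 and 127 bp in shNT. Going away from the start, their percentiles were 57.1, 70.4 and 8.79 in shRBBP4 and 75.1, 20.98 and 47.2 in shNT, so neither library ranked them higher throughout.

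Covered length differed from promoter to promoter. Of the 6 promoters with regions in both libraries, CHEK1, MRE11 and CHEK2 were covered over 1.5-fold more in shRBBP4 and none in shNT. Among 11941 cluster windows with both libraries, 44.5% were over 1.5-fold more covered in shRBBP4 and 8.84% in shNT, so 3 of 6 was near the background. CHEK2 (1.503) lay just past the limit and ATM (1.40) just short of it. The lowest ratio was that of NBN, at 0.978. The median ratio was 1.45 over the 6 promoters and 1.39 over the windows. Summed over all 8, regions covered 12396 bp in shRBBP4 and 7380 bp in shNT, a ratio of 1.68, against 1.51 for the whole lists.

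**Figure D2:**
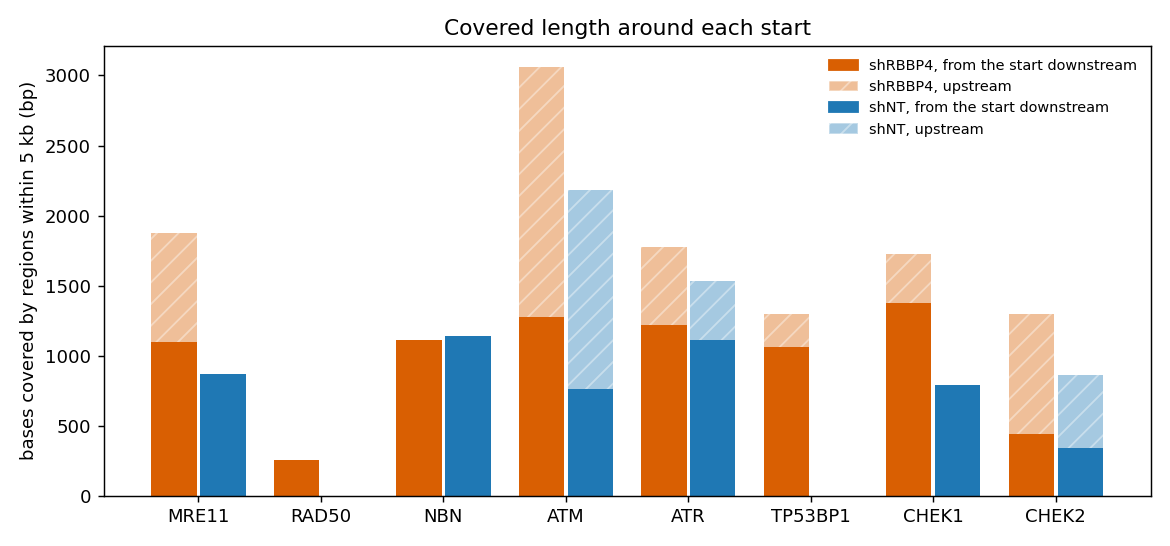
Bases within 5 kb of each start that are covered by H3K9ac regions, in bp, for shRBBP4 (left bar) and shNT (right bar), split at the start into downstream (solid) and upstream (hatched) parts. ATM is the tallest in both libraries; MRE11 and CHEK1 have an upstream part in shRBBP4 and none in shNT.

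In the deposited lists, most shNT regions near these starts overlapped an shRBBP4 region. Of the member regions, 15 of 28 in shRBBP4 overlapped an shNT region by at least 1 bp (53.6%, exact Clopper-Pearson 95% interval 33.9 to 72.5), against 50% of the whole shRBBP4 list. In shNT 19 of 20 overlapped an shRBBP4 region (95%, 75.1 to 99.9), against 77.0% of the whole list, which lies inside that interval. In lists of equal length the shNT share was 80% near the starts and 67.2% over the list, and in the higher-scoring 50% of each list it was 80% and 75.3%. The shRBBP4 share was 48.0% near the starts and 60.9% over the list at equal length, and 58.8% and 49.8% in the higher-scoring 50%. In the full lists the exception was the NBN region 1702 to 1832 bp downstream in shNT, which lay 4 bp from an shRBBP4 region. The intervals cover counting error only and treat neighbouring regions as independent. By bases, 55.3% of the shRBBP4 length near the starts was also covered in shNT, and 92.9% of the shNT length in shRBBP4. Over the whole lists these shares were 46.1% and 69.7%.

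The starts themselves were mostly free of called regions, and some had a region on each side. How often the start base is covered at other genes was not examined. The start base was covered at TP53BP1 in shRBBP4 and at no other start in either library. In shRBBP4 the gap over the start was 251 bp at MRE11, 521 bp at ATM, 355 bp at ATR, 114 bp at CHEK1 and 362 bp at CHEK2. In shNT it was 746 bp at ATM, 354 bp at ATR and 515 bp at CHEK2, and the other starts lacked a region on at least 1 side. NBN and RAD50 had no upstream region in either library. Gaps of up to 1 kb between neighbouring regions had a median of 221 bp over all of shRBBP4 and 217 bp over all of shNT.

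Most of the edges that faced the starts and could be compared fell at nearly the same base in the 2 libraries. An edge was compared where the nearest regions of both libraries on the same side of a start overlapped each other, which gave 8 edges. Requiring overlap favours edges that lie close together. It left out CHEK1 downstream, where the nearest regions began 55 bp from the start in shRBBP4 and 540 bp in shNT. They lay 78 bp from the start in shRBBP4 and 73 bp in shNT at MRE11, and 60 and 56 bp at NBN. At ATR they lay 138 and 130 bp downstream and 218 and 225 bp upstream. The ATM upstream edges were at 235 bp in shRBBP4 and 227 bp in shNT, and the CHEK2 downstream edges at 127 and 120 bp. These 6 of 8 edges differed by at most 10 bp. Over the lists, 12.2% of the edges of the 23084 overlapping pairs did. That share counts both edges of every pair, at any place, so it is not a like-for-like background. Facing edges at the starts of other genes were not compared. The 2 exceptions among the 8 facing edges were ATM downstream, at 287 bp in shRBBP4 and 520 bp in shNT, and CHEK2 upstream, at 236 and 396 bp. The opposite edges of the same 8 pairs differed by 22 to 896 bp, with none within 10 bp. At ATM on both sides and at CHEK2 downstream, the shRBBP4 region overlapped several shNT regions, and only the nearest was used. The outermost ends of these shNT regions lay 1700, 1650 and 599 bp from the start (ATM upstream, ATM downstream, CHEK2 downstream). Those of the shRBBP4 regions lay at 1730, 1560 and 567 bp. The opposite-edge differences of 592, 896 and 229 bp there thus depend on how the shNT side was split. The median difference was 7.5 bp for facing edges, 175.5 bp for opposite edges taken in this way and 92 bp for all edges of overlapping pairs. The set of facing edges was defined after the positions had been seen, so these values are a description.

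**Figure D3:**
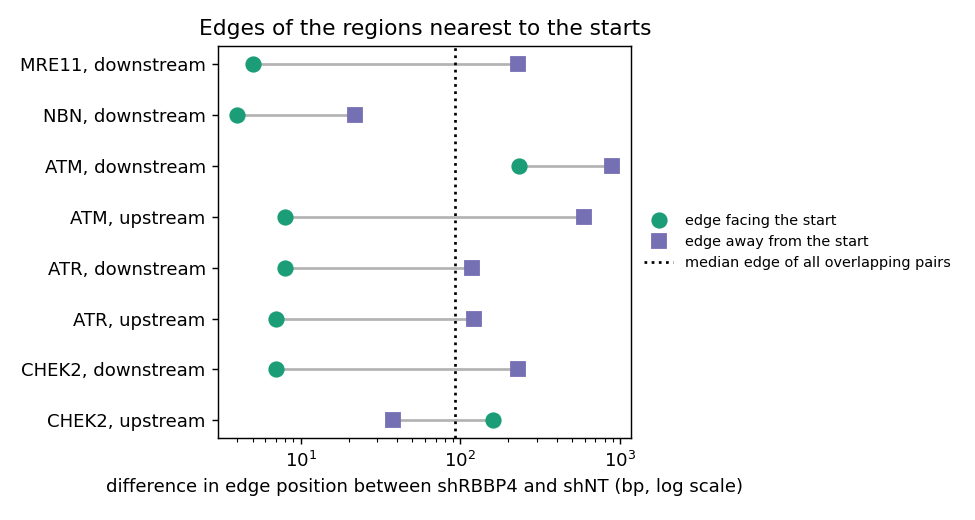
Difference in edge position between shRBBP4 and shNT in bp (log axis) for the 8 pairs of overlapping regions nearest to a start, named by gene and side. Circles are edges facing the start and squares the opposite edges of the same regions; 6 circles lie at 4 to 8 bp, left of the dotted line at 92 bp, the median of all overlapping pairs.

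Ranks of overlapping regions were spread widely. The 19 overlapping pairs near the starts had a median difference in percentile, shRBBP4 minus shNT, of 0.94 points, against 6.17 points over all 23084 pairs. A region that overlapped several regions of the other library was counted with each, here and over the lists, so the 19 pairs held 15 shRBBP4 regions. Pairs at least 50 points higher in shRBBP4 numbered 3 of 19, at ATM, CHEK1 and CHEK2, against 10.9% of all pairs. Those at ATM (72.9 points) and CHEK2 (58.3 points) involved shNT regions of 214 and 123 bp. Against their other shNT regions, the same shRBBP4 regions differed by 27.5 and 22.1 points at ATM and 8.55 points at CHEK2. Pairs at least 50 points lower in shRBBP4 numbered 2 of 19, both at NBN, against 4.31%. The lowest was the NBN pair nearest the start, at -70.2 points. Over the lists, 261 pairs (1.13%) were as low, and 31 of the 261 lay on chromosome 8, which held 936 of all pairs. The median difference was -1.53 points on chromosome 8. The chromosome also had a lower ratio of region numbers, 1.15, than the whole lists, and its part in the NBN values was not tested. The scores take 2104 distinct values in shRBBP4 and 1301 in shNT, so many regions share a rank.

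**Figure D4:**
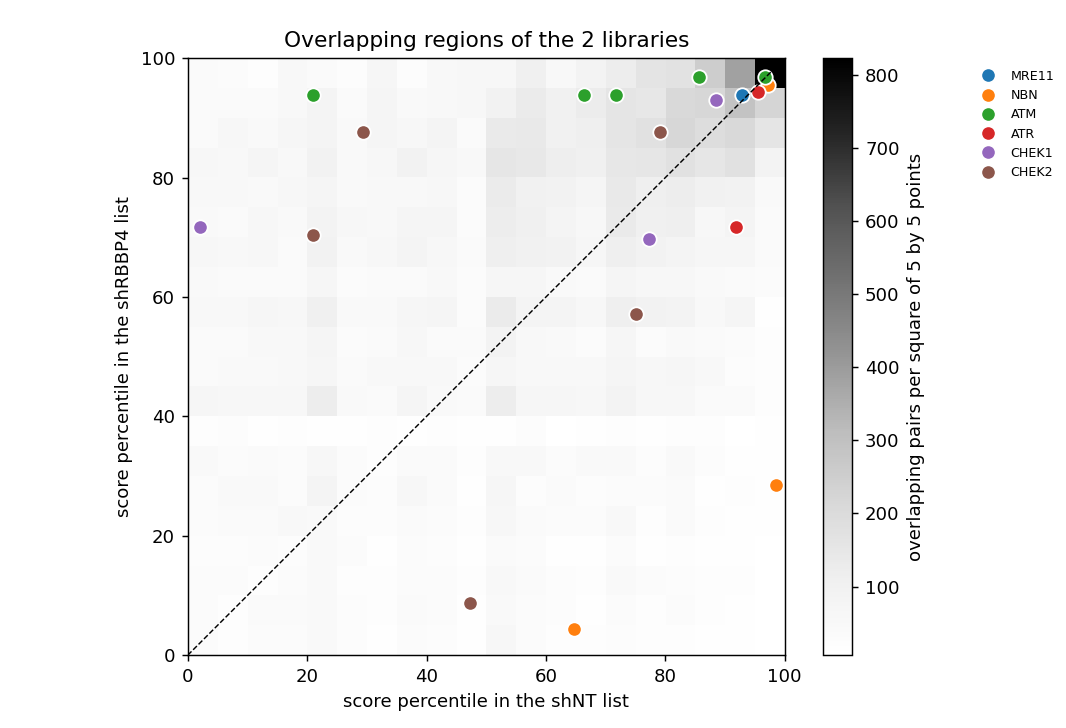
Score percentile in the shRBBP4 list (y axis) and in the shNT list (x axis) for overlapping regions; grey squares count all 23084 pairs and coloured points are the 19 pairs near the starts. The dashed line marks equal percentiles, and the NBN point at 28.4 in shRBBP4 and 98.6 in shNT lies farthest below it.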

How the data were processed

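ChIP-seq for H3K9ac was done in T98G cells with RBBP4 or control shRNA, 1 library each. The 2 input libraries were not used here. Region lists were made by the authors for each library: the track lines name macs2, per the file headers, and bcl2fastq 2.15.0, BWA, Picard, SICER and the builds GRCh37 and hg19 appear with no stated role, per the submitters' processing notes. The caller behind the lists, its threshold and the sequencing depth were not given in the sources used here. The deposited score of each region is the authors' own value, its scale is not stated, and it was used only to rank regions within a list, ties sharing a mean rank.

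Starts came with the choice of genes. The 8 genes, the lists and the comparisons were chosen with earlier results of these data known; the rule for named genes was to describe all 8. Windows, edges and pairs used as background were chosen after seeing the values. Strands came from the RefSeq promoter table, that of NBN from general knowledge. With no genome or annotation of hg19 at hand, the further pathway genes planned were not placed. Starts were counted from 1. Overlap, joining and coverage functions were tested on simulated regions. Alternatives were windows of 1, 2 and 10 kb, the higher-scoring 50% of each list, lists of equal length, other overlap rules, joined regions and ranks by width. Computation used scipy 1.17.1, pandas 2.3.3 and numpy 2.4.6 under Python 3.11.15, and plots matplotlib 3.10.9.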

Additional observations from a re-analysis of the deposited data

How the results depend on the processing

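No paired analysis was possible because there is 1 library for each shRNA and the labels give no replicate numbers. Values were taken as unchanged when within 1.5 times, and shares when inside their interval. With windows of 1 kb, 13 shNT regions remained of 20, covered length was 7726 bp in shRBBP4 and 4720 bp in shNT, and 100% of shNT regions were shared. Joining across gaps of up to 1 kb gave 8 clusters in shRBBP4 and 6 in shNT, 1 at each marked start. In the higher-scoring 50% of each list, shRBBP4 had 17 regions near the starts, fewer by construction. RAD50 then had none in shRBBP4, TP53BP1 had 1, and NBN had 1 in shRBBP4 and 4 in shNT. In lists of equal length RAD50 and TP53BP1 kept 1 and 4 regions in shRBBP4, and NBN 2. The shared share of shNT regions was 55.0% with reciprocal overlap of at least 50% and 100% within 1 kb, and that of shRBBP4 regions 82.1% within 1 kb. The depth of both libraries is unknown, which limits what region numbers and widths can show.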

Other observations

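The chromosomes of the 8 genes differed in their share of regions. The ratio of shRBBP4 to shNT regions was 1.64 on chromosome 22 (CHEK2), 1.58 on chromosome 3 (ATR), 1.58 on chromosome 15 (TP53BP1), 1.48 on chromosome 5 (RAD50), 1.40 on chromosome 11 (MRE11, ATM and CHEK1) and 1.15 on chromosome 8 (NBN).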
